A study of Mus musculus with 4 samples.

Results

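Receptor tyrosine kinases known in melanoma growth and spread were followed in cultured B16-F10 cells. The set was named by gene symbol, by a rule that uses no measured value, and holds 10 of the 53465 genes in the deposited count table: Met, Kit, Erbb3, Igf1r, Insr, Axl, Mertk, Tyro3, Fgfr1 and Egfr. B16-F10 is a pigmented melanoma line of the C57BL/6 mouse that is used for its ability to colonise the lung. Fluorescent cells of this line had been infused into zebrafish, recovered cells were grown in IMDM with serum, and stranded mRNA libraries were sequenced. The extravasation label splits the libraries into 2 that had left the circulation and 2 that had not, and the series design names the latter as the control; the growth text describes cells that extravasated as clusters for all 4. All groups share the line, the infusion, the medium and the kit, and the labels name no further allele or agent. Whether the libraries of a group stem from separate cultures is not stated, and p-values therefore reflect the spread of these samples alone, part of which may be technical. A number in the sample titles changes together with the label, so that both cannot be told apart.

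A receptor tyrosine kinase binds a growth factor outside the cell, pairs with a second receptor and phosphorylates tyrosines on its own tail. Adaptor proteins dock there and pass the signal to the RAS to ERK cascade and to the PI3K to AKT branch. Melanocytes depend on Kit during development, while Met, the ErbB receptors and Axl are known for signalling in melanoma invasion and in resistance to inhibitors of the ERK cascade.

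Of the 10 receptors, 9 had reads in every library and were tested, and Egfr had 0 reads in all 4. Met stood far above the others, and Met, Insr and Erbb3 were lower in the extravasated libraries. Levels below are TMM-scaled CPM, which are counts scaled to a common library total, or TPM, which also divide by the length of the exons of the gene and so allow genes to be compared. A difference was called at an adjusted p under 0.05 (edgeR quasi-likelihood test, Benjamini-Hochberg adjustment over 12320 tested genes). Of all tested genes, 45.1% were called, 25.9% as lower and 19.1% as higher in the extravasated libraries. Against this background, 3 of the 9 tested receptors fell and 0 rose, with no receptor at an unadjusted p under 0.05 on the higher side and none called higher by DESeq2 or limma-voom either.

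The upstream sequences of the receptor with the most transcripts, of a receptor whose groups differed little and of the receptor without reads are shown to let their start sites be compared. Each is the 250 bases before the RefSeq start on GRCm38.p6. Capitals mark matches, on either strand, to CACGTG, the E-box that the melanocyte regulator MITF and its relatives can bind, to CATGTG, the core of the melanocyte M-box, and to TGAGTCA, the AP-1 element. Met lies at chr6:17463707-17463956 (plus strand), Axl at chr7:25788734-25788983 (minus strand) and Egfr at chr11:16751953-16752202 (plus strand).
Met: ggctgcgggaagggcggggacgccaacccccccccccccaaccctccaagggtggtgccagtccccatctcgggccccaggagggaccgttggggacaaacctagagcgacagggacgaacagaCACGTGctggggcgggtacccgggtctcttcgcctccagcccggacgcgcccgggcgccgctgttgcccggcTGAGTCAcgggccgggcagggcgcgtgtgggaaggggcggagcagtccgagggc
Axl: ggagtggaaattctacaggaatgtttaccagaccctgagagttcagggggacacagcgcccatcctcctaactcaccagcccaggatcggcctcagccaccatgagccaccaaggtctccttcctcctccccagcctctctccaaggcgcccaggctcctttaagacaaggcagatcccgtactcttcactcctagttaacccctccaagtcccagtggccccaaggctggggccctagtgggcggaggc
Egfr: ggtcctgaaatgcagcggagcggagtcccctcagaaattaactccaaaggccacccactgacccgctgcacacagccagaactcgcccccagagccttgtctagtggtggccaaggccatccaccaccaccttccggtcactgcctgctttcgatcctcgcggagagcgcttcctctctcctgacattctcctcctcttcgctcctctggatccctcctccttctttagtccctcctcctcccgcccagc

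The Met window holds 1 CACGTG, whose first base is 126 bases before the start, and 1 TGAGTCA, 54 bases before it. Of the 32851 windows of the same length in the RefSeq table, 6.02% hold CACGTG, 12.3% hold CATGTG and 4.46% hold TGAGTCA. Windows were found for 7 of the 10 receptors (Met, Kit, Igf1r, Axl, Mertk, Tyro3 and Egfr), and Met was the only one of these with any of the 3 motifs. No window was found for Erbb3, Insr and Fgfr1, so the called receptors Erbb3 and Insr could not be searched. The windows differ in base composition, with 74% G and C and 24 CpG pairs in Met, 60% and 5 in Axl, and 60.8% and 11 in Egfr. A match describes letters only and is not evidence that a factor binds there.

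Mitf itself had levels of 529.8 and 320.5 CPM in the non-extravasated and 166.4 and 203.1 CPM in the extravasated libraries. Its log2 fold change was -1.20 (edgeR adjusted p = 0.013), and -0.11 once GC content and transcript length were corrected for (adjusted p = 0.748). Of the 7 melanocyte markers, 2 were called higher, Pmel (0.76) and Sox10 (0.77), and 2 lower, Mitf and Tyr (-0.60). With that correction, 2 of the 7, Tyr (0.77) and Mlana (0.76), were called higher and 0 lower. A part of Mitf in the level of Met was not tested.

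Library totals ranged from 11705904 to 19674733 counts, and 3 counts, taken as the floor of a listed 0, corresponded to 0.158 to 0.26 CPM. All 7 melanocyte markers were present, with summed levels of 23904 to 28884 CPM in the non-extravasated and 29901 to 30903 CPM in the extravasated libraries. Of 7 fibroblast markers the sums were 16.4 to 23.3 and 19.7 to 21.8 CPM, with Dcn and Lum at 0. Among them Col1a1 was called higher (log2 fold change 0.83) and Pdgfra lower (-1.46), and neither was called with the GC and length correction. Of 7 leukocyte markers the sums were 4.51 to 4.74 and 4.32 to 5.22 CPM, most of it Cd68, with Ptprc, Cd3e and Itgam at 0. Endothelial markers summed to 3.93 to 8.77 and 15.3 CPM, almost all of it Vwf, with Cdh5, Kdr, Tek and Tie1 at 0. Vwf was called higher in the extravasated libraries, with a log2 fold change of 1.30 (edgeR adjusted p = 0.043). With the GC and length correction it was at 1.35 (edgeR adjusted p = 0.042). Epithelial markers summed to 0.694 to 0.752 and 1.14 to 1.21 CPM, with Epcam, Krt5, Krt14, Krt8 and Cldn4 at 0. The part of these cells in the receptor differences was not tested. In these bulk libraries, fewer cells of a type and less RNA per cell cannot be told apart.

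**Figure D1:**
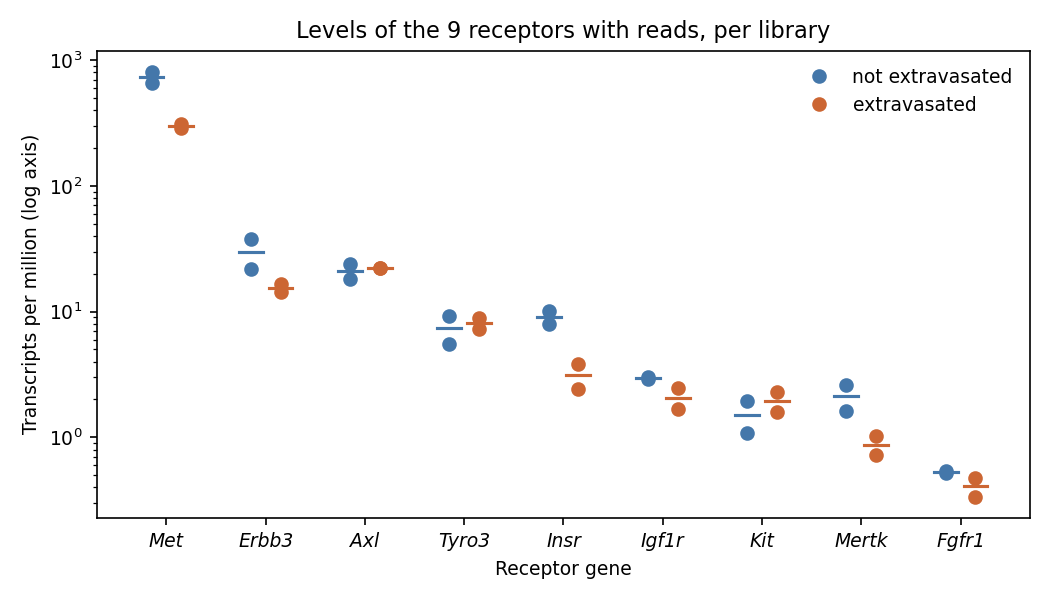
TPM of the 9 receptors with reads, on a log axis, with 1 point per library and a bar at the mean of each group of 2; Egfr, at 0, is not drawn. Met lies between 289 and 806 TPM, and every other receptor is below 38 TPM.

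Per length, Met was the most abundant of the receptors in every library, at 656.0 and 805.7 TPM in the non-extravasated and 289.3 and 313.4 TPM in the extravasated libraries. It ranked 215 of the 12320 tested genes by mean TPM. Erbb3 and Axl came next, with means of 22.5 and 21.6 TPM over the 4 libraries and overlapping ranges. Erbb3 was above Axl in both non-extravasated libraries, and Axl was above Erbb3 in both extravasated ones. Tyro3 and Insr followed with 7.74 and 6.07 TPM, then Igf1r with 2.52, Kit with 1.72, Mertk with 1.496 and Fgfr1 with 0.467 TPM. Neighbours in this order had overlapping ranges, except Met above Erbb3, Axl above Tyro3 and Mertk above Fgfr1.

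Met took 91.6% and 90.1% of the summed TPM of the 10 receptors without extravasation and 83.4% and 86.1% in the extravasated ones. The other receptors together summed to 60.5 and 88.2 TPM in the non-extravasated and 57.4 and 50.6 TPM in the extravasated libraries. In TPM, which were not corrected for GC content, the 4 libraries thus differed in their receptor total mainly through Met. Among all 58 receptor tyrosine kinases listed, Met held 58.4% and 60.6% of the summed TPM in the non-extravasated and 40.8% and 44.4% in the extravasated libraries.

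Met is the receptor of hepatocyte growth factor (ENSMUSG00000009376.15, GRCm38 chromosome 6, 17463800 to 17573980, plus strand). Its reads numbered 18658 and 31630 without extravasation against 9993 and 16918 after it, which equal 1619 and 1830 CPM against 756.6 and 890.8 CPM. Both extravasated values lay below both non-extravasated values, and libraries of a group differed by a factor of 1.13 and 1.18. Mean levels were 1725 ± 149 and 823.7 ± 94.9 CPM (SD, n = 2 each), a 2.09-fold fall with a log2 fold change of -1.07 ± 0.13 (SE; adjusted p in edgeR = 0.00128). The 95% interval of the log2 fold change was -1.37 to -0.77. With a correction for GC content and transcript length, described further on, Met was not called (-0.44, edgeR adjusted p = 0.114, and -0.15, adjusted p = 0.587, on its longest transcript). Hgf, its ligand, had 0 reads in all 4 libraries.

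Insr, the insulin receptor (ENSMUSG00000005534.10, chromosome 8, 3122061 to 3279617, minus strand), showed the largest fall among the called receptors. Its levels were 35.2 and 40.9 CPM in the non-extravasated and 18.0 and 12.3 CPM in the extravasated libraries, with no overlap. Mean levels were 38.0 ± 3.97 and 15.1 ± 4.07 CPM (SD, n = 2 each), a 2.53-fold fall with a log2 fold change of -1.34 ± 0.22 (SE; adjusted p in edgeR = 0.00332). With the same correction Insr was not called (-0.44, edgeR adjusted p = 0.174).

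Igf1r, the type 1 insulin-like growth factor receptor and the close relative of Insr (ENSMUSG00000005533.10, chromosome 7, 67952827 to 68233668, plus strand), was at 16.3 and 14.6 CPM in the non-extravasated and at 14.1 and 10.4 CPM in the extravasated libraries. The groups lay apart by less than 1 CPM, and the difference was not called, with a log2 fold change of -0.34 ± 0.22 (SE; 95% interval -0.86 to 0.17; edgeR adjusted p = 0.243). Per length, the ratio of Insr to Igf1r was 2.64 and 3.42 in the non-extravasated and 1.56 and 1.44 in the extravasated libraries, so that Insr was the more abundant transcript of the pair in all 4. Their ligands Igf1, Igf2, Ins1 and Ins2 had 0 reads in every library.

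Erbb3 is the neuregulin receptor of the ErbB family, whose own kinase is nearly inactive and which signals through partners such as Erbb2 (ENSMUSG00000018166.8, chromosome 10, 128567523 to 128589652, minus strand). It was at 42.0 and 67.1 CPM in the non-extravasated and at 33.8 and 31.9 CPM in the extravasated libraries. The non-extravasated values differed more from each other than the lower of them did from the extravasated values. Mean levels were 54.5 ± 17.7 and 32.8 ± 1.35 CPM (SD, n = 2 each), a 1.67-fold fall with a log2 fold change of -0.74 ± 0.23 (SE; adjusted p in edgeR = 0.034). This call ended without not_extravasated_2 (log2 fold change -0.35, adjusted p = 0.125), without extravasated_1 (-0.69, adjusted p = 0.213), without extravasated_2 (-0.66, adjusted p = 0.26) and with upper quartile scaling (-0.66, adjusted p = 0.0576). It also ended with the correction (-0.59, edgeR adjusted p = 0.132). Without not_extravasated_1 the value was -1.03.

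Erbb2, the partner that binds no ligand, was at 11.1 and 13.0 TPM in the non-extravasated and 13.5 and 13.7 TPM in the extravasated libraries, with a log2 fold change of 0.38 (edgeR adjusted p = 0.098). The ratio of Erbb3 to Erbb2 per length was 1.96 and 2.91 in the non-extravasated and 1.22 and 1.05 in the extravasated libraries. Erbb4 had 0 reads in all 4, as had Egfr (ENSMUSG00000020122.16, chromosome 11, 16752203 to 16918158, plus strand), the receptor of epidermal growth factor. Of the neuregulins, Nrg1 had 0 to 1 reads per library and Nrg2 had 26 and 31 in the non-extravasated and 58 and 62 in the extravasated libraries. Of the ligands of Egfr, Hbegf was at 6.77 and 5.27 CPM in the non-extravasated and 6.66 and 7.69 CPM in the extravasated libraries, and Areg and Ereg had 0 reads.

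Axl, Mertk and Tyro3 form the TAM family, which binds the vitamin K dependent proteins Gas6 and protein S. Axl (ENSMUSG00000002602.16, chromosome 7, 25757273 to 25788705, minus strand) was at 29.4 and 35.8 CPM in the non-extravasated and at 37.9 and 41.3 CPM in the extravasated libraries. The groups did not overlap, yet the difference was not called, with a log2 fold change of 0.28 ± 0.16 (SE; 95% interval -0.10 to 0.66; edgeR adjusted p = 0.194). Axl was the most abundant of the family in each library, with a per-length ratio of 3.29 and 2.58 to Tyro3 in the non-extravasated and of 2.49 and 3.05 in the extravasated libraries.

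Tyro3 (ENSMUSG00000027298.17, chromosome 2, 119797733 to 119818104, plus strand) was at 11.02 and 17.07 CPM in the non-extravasated and at 18.7 and 16.7 CPM in the extravasated libraries. The groups overlapped, with a log2 fold change of 0.32 ± 0.24 (SE; 95% interval -0.24 to 0.89; edgeR adjusted p = 0.309). Without not_extravasated_2 the value was 0.69 and was called (adjusted p = 0.0184).

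Mertk (ENSMUSG00000014361.5, chromosome 2, 128698956 to 128802894, plus strand) had 26 and 58 reads in the non-extravasated and 20 and 22 in the extravasated libraries, or 2.26 and 3.36 CPM against 1.51 and 1.16 CPM. The groups did not overlap at these low counts. The log2 fold change of -1.10 ± 0.41 (SE; 95% interval -2.04 to -0.15) did not pass the threshold after adjustment (edgeR adjusted p = 0.0591), and without not_extravasated_1 it was -1.34 and was called (adjusted p = 0.0128). Of the ligands, Gas6 had 1 read in 1 library and none in the others, and Pros1, which encodes protein S, was at 27.6 and 32.2 CPM in the non-extravasated and 12.6 and 9.32 CPM in the extravasated libraries. Pros1 fell 2.75-fold, with a log2 fold change of -1.46 ± 0.21 (SE; adjusted p in edgeR = 0.00219), and was the only called ligand among 6 tested of the 24 listed, while 4 were called without not_extravasated_2 and 2 without not_extravasated_1. With the correction Pros1 was at -0.53 (edgeR adjusted p = 0.12), and 0 of the 6 ligands were called, with 1 at an unadjusted p under 0.05.

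Kit, the stem cell factor receptor of melanocytes and mast cells (ENSMUSG00000005672.12, chromosome 5, 75574916 to 75656722, plus strand), had 64 and 49 reads in the non-extravasated and 92 and 99 in the extravasated libraries. Scaled, these were 5.55 and 2.84 CPM and 6.97 and 5.21 CPM, so that the groups overlapped. The log2 fold change was 0.55 ± 0.38 (SE; 95% interval -0.32 to 1.43; edgeR adjusted p = 0.262), and 1.09 without not_extravasated_1, where it was called (adjusted p = 0.00834). Kitl, its ligand, had 118 and 36 reads in the non-extravasated and 33 and 69 in the extravasated libraries, and the difference was not called (log2 fold change -0.96, edgeR adjusted p = 0.346).

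Fgfr1, a fibroblast growth factor receptor (ENSMUSG00000031565.18, chromosome 8, 25513654 to 25575718, plus strand), was close to the detection limit with 19 and 27 reads in the non-extravasated and 15 and 33 in the extravasated libraries. The groups overlapped at 1.14 to 1.74 CPM, with a log2 fold change of -0.14 ± 0.42 (SE; 95% interval -1.12 to 0.84; edgeR adjusted p = 0.813). An antisense gene on the opposite strand, Gm16159, covers 1.66% of its exon bases, and the strand setting of the counting was not given in the sources used here. Fgf1 was the most abundant of the listed fibroblast growth factors, at 27.0 and 16.0 CPM in the non-extravasated and 13.3 and 14.5 CPM in the extravasated libraries (log2 fold change -0.62, edgeR adjusted p = 0.091).

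In 6 of the 9 tested receptors (Met, Erbb3, Insr, Igf1r, Axl and Mertk) the groups did not overlap, beside 76.3% of all tested genes. All but Axl of these were lower in the extravasated libraries, the direction of 39% of all tested genes. With 2 libraries in each group, the smallest two-sided p of an exact permutation test is 0.333, so no single receptor can pass such a test.

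**Figure D2:**
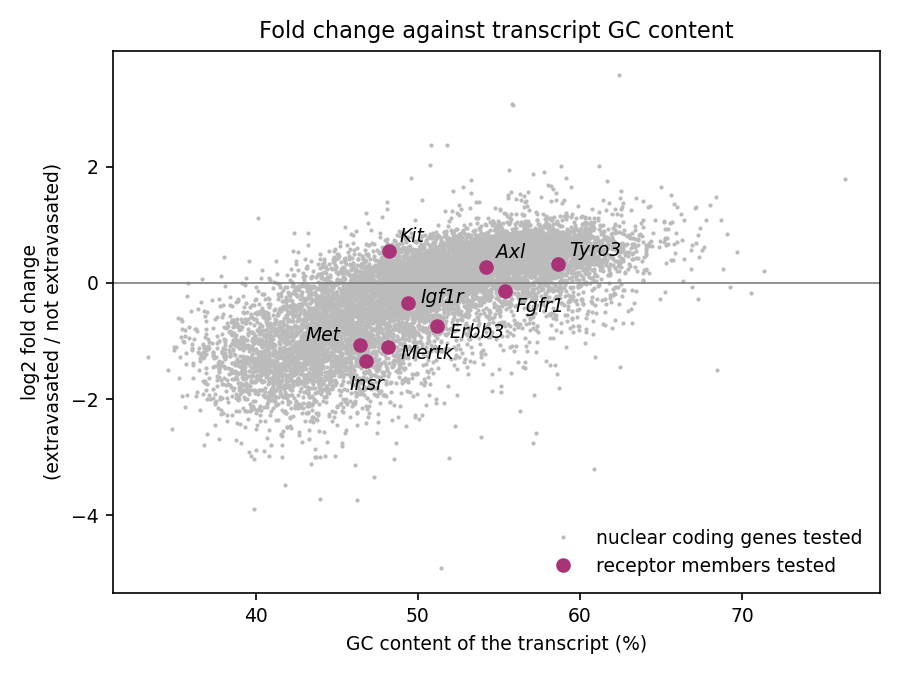
Log2 fold change of extravasated over non-extravasated libraries against the GC content of the transcript, with nuclear coding genes in grey and the 9 tested receptors as larger named points. Met, Insr and Mertk, at 46.4%, 46.8% and 48.1% GC, lie low, and Tyro3 and Axl, at 58.7% and 54.2%, lie slightly above 0.

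The differences of the receptors moved with the base composition of their transcripts. Across 11126 nuclear coding genes the Spearman rho between transcript GC content and log2 fold change was 0.743, a description across genes of the same 4 libraries. Met and Insr, both lower in extravasated libraries, had the lowest GC contents of the tested receptors, 46.4% and 46.8%, and Erbb3 had 51.2%. Kit, at 48.2% and with a log2 fold change above 0, and Mertk, at 48.1% and with one below 0, had nearly the same GC content. Axl, Fgfr1 and Tyro3, at 54.2%, 55.4% and 58.7%, were not called.

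A smooth term for GC content and transcript length, fitted for each library over all genes, lowered rho to 0.0123. With it, 14% of all tested genes were called, 5.8% as lower and 8.24% as higher, and 0 of the 9 receptors. At an unadjusted p under 0.05 there were 3, Met and Erbb3 as lower and Kit as higher. No share of all tested genes at that unadjusted threshold is given, here or for the gene lists, so such counts have no background. Met had a corrected log2 fold change of -0.44 ± 0.17 (SE; adjusted p in edgeR = 0.114), Insr of -0.44 ± 0.20 (SE; adjusted p = 0.174) and Erbb3 of -0.59 ± 0.23 (SE; adjusted p = 0.132). With the longest annotated transcript of Met, 6809 nucleotides in place of 4140, its value was -0.15 (adjusted p = 0.587). The corrected value of Kit was 1.02 ± 0.34 (SE; adjusted p = 0.0832). Igf1r turned from -0.34 to 0.35 (adjusted p = 0.227).

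Corrected for GC content alone, without transcript length, edgeR called 2202 of the 12320 tested genes, of which 998 were lower. Of the 9 receptors 2 were called, both lower. These were Insr at -0.83 (adjusted p = 0.0229) and Erbb3 at -0.81 (adjusted p = 0.0475), while Met was at -0.48 and was not called (adjusted p = 0.0813).

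The corrected values moved with the library left out. Over the 4 corrected fits without 1 library, Met ranged from -0.65 to -0.23, Insr from -0.64 to -0.20 and Erbb3 from -0.91 to -0.15. Kit ranged from 0.62 to 1.51. Without not_extravasated_1 the corrected values were -0.55 for Met, -0.64 for Insr, -0.91 for Erbb3 and 1.51 for Kit. Calls in these fits are given further on, beside those over all tested genes. Fits that leave a lone library in a group assume that it varies like the other group.

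**Figure D3:**
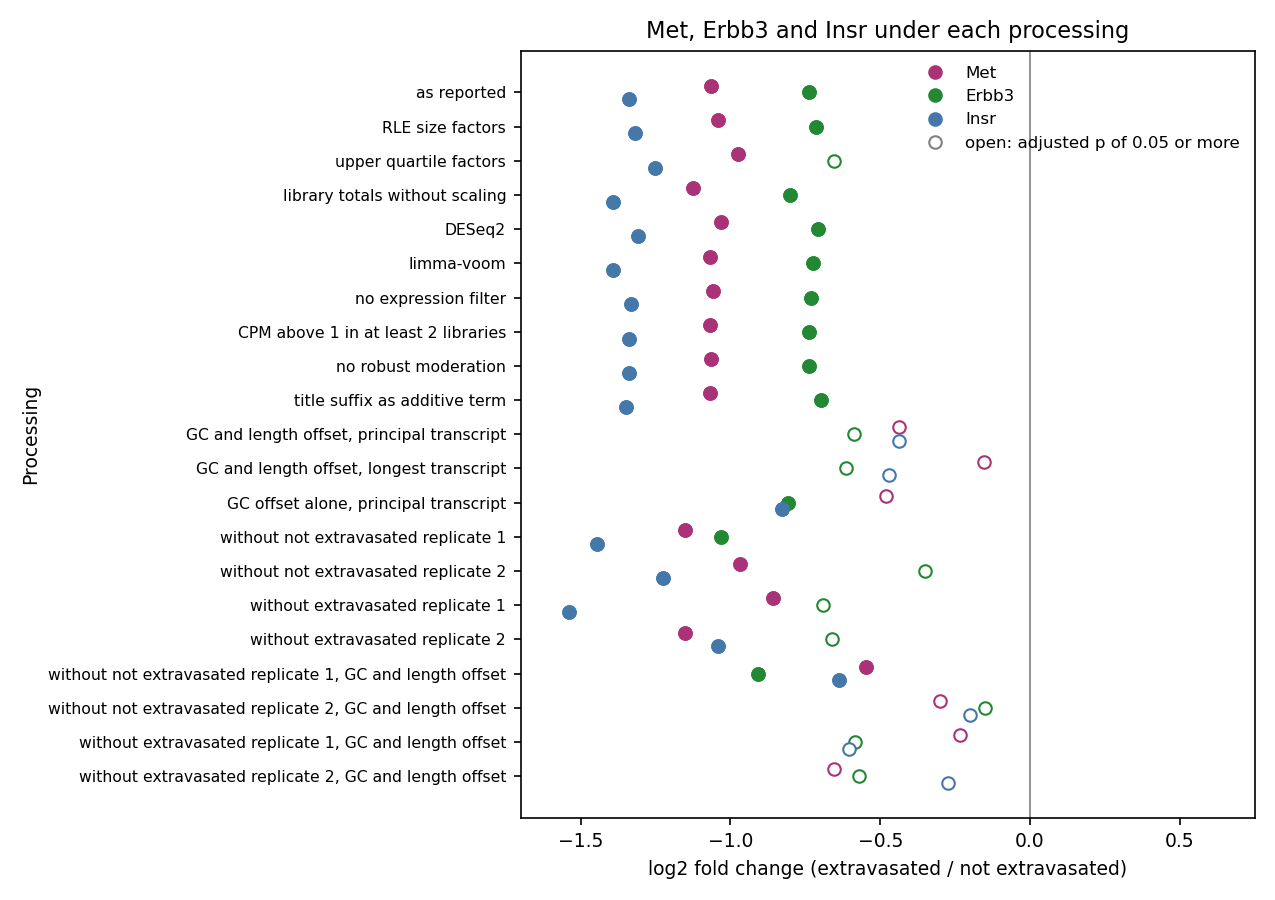
Log2 fold changes of Met, Erbb3 and Insr under each processing, filled where the adjusted p was under 0.05 and open elsewhere. All values lie below 0, and the open points gather in the fits with GC and length correction and, for Erbb3, in most fits without 1 library.

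**Figure D4:**
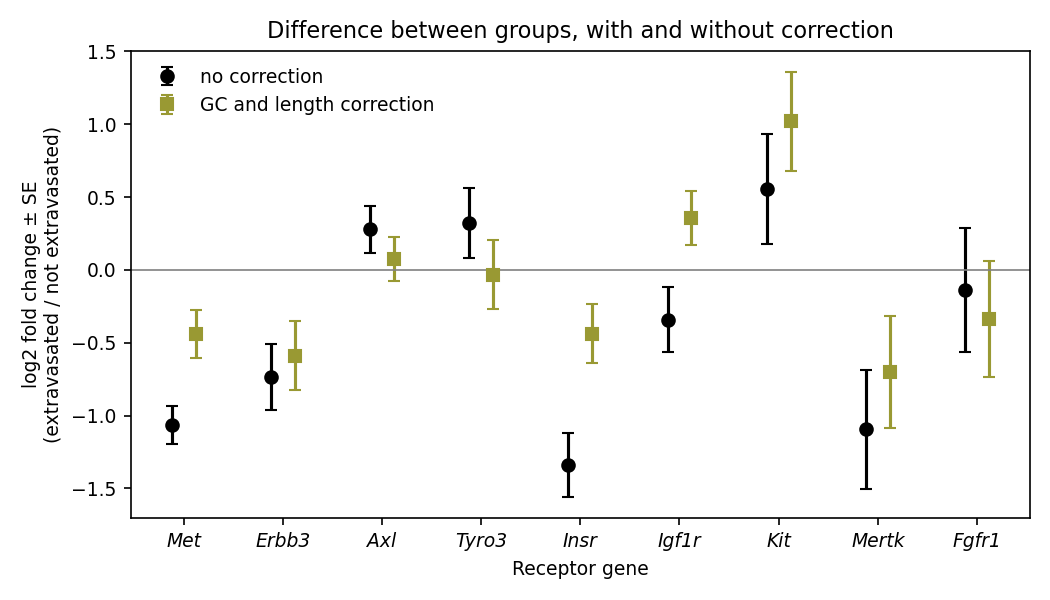
Log2 fold changes with standard errors for the 9 tested receptors, as round points without and as square points with the correction for GC content and transcript length. Met, Insr and Erbb3 stay below 0 with the correction, at -0.44, -0.44 and -0.59, and Igf1r changes sides.

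Genes with a profile like that of each called receptor were sought by the root mean square difference of log2 CPM deviations over the 4 libraries. Ppp3ca, Tmtc2 and Sox5 were nearest to Met, at 0.028, 0.035 and 0.036 log2 units, and 49 genes lay within 0.1. Ebf4, Pygl and Ccdc136 were nearest to Erbb3, and Tanc2, Foxn3 and Gjc3 to Insr. With 4 libraries, many genes share any such profile.

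Genes near the called receptors did not all share their direction. Within 500 kb of Met, 6 genes were tested, and 2 of them, Cav1 and Capza2, fell, with log2 fold changes of -1.48 and -1.28. With the correction, Cav1 (-0.49, edgeR adjusted p = 0.165) and Capza2 (-0.13, adjusted p = 0.677) were not called. Cav2 was then called higher (0.56, edgeR adjusted p = 0.029). Within 500 kb of Erbb3, 41 genes were tested, of which 3 fell and 14 rose. Within 500 kb of Insr, 4 of 10 rose and the others were not called. These counts are from the fit without correction, in which 25.9% of all tested genes fell and 19.1% rose. This window was chosen after other results had been seen.

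**Figure D5:**
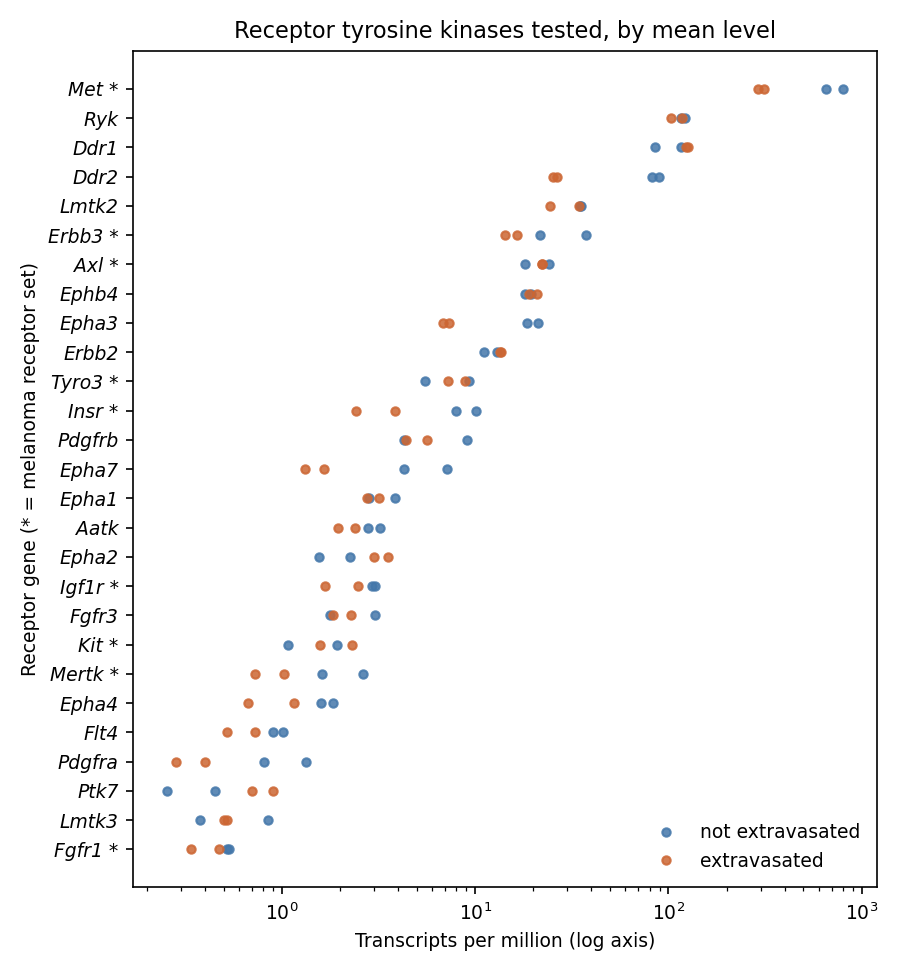
TPM, on a log axis, of the 27 receptor tyrosine kinases that were tested, ordered by mean level, with 1 point per library and a star at the melanoma receptors. Met leads, Ryk, Ddr1, Ddr2 and Lmtk2 follow, and Fgfr1 has the lowest mean.

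Among the 48 other receptor tyrosine kinases listed, 18 were tested. Of these 2 rose and 4 fell, beside 19.1% and 25.9% of all tested genes. The 18 had a median log2 fold change of -0.07, against -0.34 for the 9 melanoma receptors and -0.02 for all tested genes. Ryk, a Wnt receptor, and the collagen receptor Ddr1 were the next most abundant after Met, with means of 114.7 and 113.0 TPM. Ddr2, the other discoidin domain receptor for collagen, fell 2.88-fold, with a log2 fold change of -1.53 ± 0.14 (SE; adjusted p in edgeR = 0.000719). The ephrin receptors Epha3 and Epha7 fell with log2 fold changes of -1.28 and -1.76, and Pdgfra fell with -1.46. Ddr1 (0.53) and Epha2 (1.002) rose. After correction 0 of the 18 were called by edgeR, beside 14% of all tested genes, with 1 of the 18 at an unadjusted p under 0.05. Of all 58 receptors, 19 had no read in any library.

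Calls among the other receptors and in the lists below fell in number when either extravasated library was left out. The number of calls over all tested genes fell in the same fits. Without extravasated_2, 4 genes of the RAS to ERK core were called in place of 11, 6 of the PI3K to AKT core in place of 15, 6 of the downregulation genes in place of 12, 4 of the processing genes in place of 15 and 2 of the other receptors in place of 6. Without extravasated_1, 7 of the RAS to ERK core and 3 of the other receptors were called.

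Adaptors and docking proteins link the receptors to their cascades. Of 22 tested, 2 rose and 6 fell, beside 19.1% and 25.9% of all tested genes. The median log2 fold change of the 22 was 0.01. After correction, 8.24% of all tested genes rose and 5.8% fell, which is the background for this list and those below. The RAS exchange factors Sos1 and Sos2 fell with log2 fold changes of -1.08 and -1.73. Frs2, the docking protein of fibroblast growth factor receptors, fell with -1.35, and the adaptor Nck1 with -1.31. Gab1, the docking protein on which Met relies, was picked after its values were seen: it fell with -0.83 and stayed called after correction, at -0.85 (edgeR adjusted p = 0.018), as did Sos2 at -0.75 (adjusted p = 0.0137). These were the 2 of the 22 called after correction, and neither call held in the corrected fits without extravasated_1 or without extravasated_2. Sos1 turned to 0.42 (edgeR adjusted p = 0.123), Nck1 was at -0.02 and Frs2 at -0.39, and Sos1, Nck1 and Frs2 were not called. Grb2, the adaptor that recruits the SOS proteins, was at 84.5 and 94.6 CPM in the non-extravasated and 87.7 and 96.9 CPM in the extravasated libraries.

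In the RAS to ERK core, 5 of 16 rose and 6 fell, beside 19.1% and 25.9% of all tested genes. The 2 directions split by base composition. The 6 that fell had transcripts of 38.4 to 44.9% GC, and the 5 that rose had 52.8 to 60.4%. Braf fell 3.11-fold (log2 fold change -1.64) and Nf1, which inactivates RAS, 3.20-fold (-1.68), while Map2k2, which phosphorylates ERK, rose 2.04-fold (1.03). Hras, picked after its values were seen, rose by 0.78 on the log2 scale. After correction 3 of the 16 were higher and 1 lower: Map2k2 kept its call (0.54, edgeR adjusted p = 0.0412), and Braf (-0.13), Nf1 (-0.35) and Hras (0.43) were not called.

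The PI3K to AKT core split in the same way, with 7 of 20 higher at 54.2 to 61.4% GC and 8 lower at 40.9 to 45.8%. Those counts stand beside 19.1% higher and 25.9% lower of all tested genes. Pik3ca, a catalytic subunit, and Pik3r3, a regulatory subunit, fell with log2 fold changes of -1.24 and -1.34. Akt1, picked after its values were seen, rose from 988.4 and 849.9 to 1570 and 1632 CPM, which is 0.80 on the log2 scale. After correction 1 of the 20 was called, Tsc2, which restrains mTOR, at 0.56 (edgeR adjusted p = 0.0259). Pik3ca turned to 0.29, and Pik3r3 (-0.36) and Akt1 (0.34) were not called.

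Of 22 tested genes of receptor downregulation and feedback, 3 rose and 9 fell, beside 19.1% and 25.9% of all tested genes. Usp8 and Stam, which act in endosomal sorting of receptors, fell with log2 fold changes of -0.93 and -1.54, and the phosphatase genes Ptpn2 and Ptpn12 with -1.17 and -1.16. After correction 0 of the 22 were called by edgeR. At an unadjusted p under 0.05 there were 8, with 5 higher and 3 lower, again without a share of all tested genes.

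Of 22 tested genes of receptor processing and co-receptors, 8 rose and 7 fell, beside 19.1% and 25.9% of all tested genes. Adam10 and Adam17, proteases that shed receptor ectodomains and ligands, fell with log2 fold changes of -1.50 and -1.30. Sdc2, a heparan sulfate proteoglycan, fell with -1.12, and Bace2, an aspartyl protease, rose with 0.84. After correction 3 rose and 1 fell. Adam10 (-0.32), Adam17 (-0.51) and Sdc2 (0.01) were then not called, and Bace2 was, at 1.78 (edgeR adjusted p = 0.003).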

How the data were processed

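The authors deposited whole-number read counts for each gene of 4 libraries, not normalized. The submitters' processing notes list bcl2fastq 2.18.0.12, STAR 2.5.3a and GRCm38; which counter, annotation release and strand setting were used is not given in the sources used here. Identifiers were matched without version to GENCODE M21 (105 of 53465 did not match). edgeR 4.0.16 (R 4.3.3) was run on all genes with TMM factors, the default expression filter (count of 10, total of 15) and its quasi-likelihood test, two-sided, robust and without covariates; standard errors come from the fold change and F. TPM were computed from exon unions. For the correction, deviations of log2 CPM (prior count 2) from the mean of all libraries were smoothed on GC content and log2 length of the APPRIS principal transcript (mgcv 1.9.3, basis size 10) and entered as an offset; genes with no coding transcript used another transcript, and mitochondrial genes none. Alternatives used DESeq2 1.42.0, limma 3.58.1, other scaling, filters and transcripts, and each library left out. The code was tested on simulated data. Counting error of low counts limits Fgfr1, Mertk and Kit.

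The rule for the receptors uses no measured value, but the receptors, the gene lists and the correction were chosen with earlier results of these data known. From each list, up to 4 called genes of at least 1 CPM on average are named, in order of adjusted p, and others are said to be picked later; some genes the rule names are not reported here. For up to 3 called receptors, the 3 nearest profiles are named. Replicate numbers only name libraries. No amino acid sequence was used here.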

Additional observations from a re-analysis of the deposited data

How the results depend on the processing

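The labels give no replicate numbers shared between groups, and the main fit used no pairing. Of the title suffixes only C recurs in both groups; a fit with C against the other suffixes as a covariate called 6165 genes and kept the 3 receptor calls. The number of genes called was 5551 (2355 higher, 3196 lower). It was 1729 with the GC and length correction (1015 higher, 714 lower), 1669 with the longest transcripts and 2202 with GC content alone. With 1 library left out it ranged from 1874 (without extravasated_2) to 6251, and with the correction it was 3477 without not_extravasated_1, 2342 without not_extravasated_2, 134 without extravasated_1 and 2 without extravasated_2. The number of receptors called was 3, and 0 with the correction on either transcript (edgeR; 3 at an unadjusted p under 0.05 on each) but 2, Insr and Erbb3, with GC content alone. With 1 library left out it ranged from 2 to 5, and from 0 to 4 with the correction. The share of Met in the summed TPM of the 10 receptors was 87.8% over the libraries, and 91.6% with the length of the principal transcript. Met and Insr were called in each fit without correction, including DESeq2 and limma-voom.

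Directions turned only where no call was made. Igf1r was 0.35 with the correction, 0.32 with longest transcripts and 0.31, 0.41, 0.21 and 0.48 with the correction and without not_extravasated_1, not_extravasated_2, extravasated_1 or extravasated_2. Tyro3 was -0.0328 with the correction, -0.13 with GC content alone and -0.29 and -0.16 with the correction and without not_extravasated_1 or extravasated_1. Axl was -0.0465 with GC content alone and -0.0578 with the correction and without not_extravasated_1, and Fgfr1 was 0.21 without extravasated_1 and -0.46 without extravasated_2. The cause was not tested. Depth limits Fgfr1 and Mertk, at 15 to 58 reads per library.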
